A study of Mus musculus with 14 samples.

Results

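The genes described here were 10 genes of fat absorption: the fatty acid receptor Cd36, the fatty acid carriers Fabp1 and Fabp2, the triglyceride-forming enzymes Dgat1 and Dgat2, the microsomal transfer protein Mttp, and the apolipoproteins Apob, Apoa1, Apoa4 and Apoc3. They were chosen by symbol, as named members of this pathway, from the 18820 mouse genes that had a probe set of their own on the arrays, and all 10 were measured. Apoa4 had 2 probe sets and the brighter was used; the others had 1. Each of 14 RNA samples had its own Affymetrix Mouse Gene ST 1.1 array, and each value is a log2 signal summarised by the RMA-sketch method, so a difference of 1 is a 2-fold difference and values of different genes are not comparable with each other.

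The arrays fell into 7 groups, all of mouse cells with 1 Cdx2 allele already deleted and the other floxed (Cdx2-/fl) and with an Lgr5-EGFP-Ires-CreERT2 knock-in allele on a mixed background. Cdx2 is the transcription factor that sets intestinal identity, and Lgr5 marks stem cells (SCs) of the small intestine (SI) and stomach (Sto). Stem cells sorted for high Lgr5-EGFP from clonal organoids were Cdx2null SI SCs (2 arrays, the floxed allele removed by overnight 4-hydroxytamoxifen in culture), control Sto SCs (2 arrays) and control SI SCs (3 arrays). Whole organoids of the control genotype were Sto organoids in Sto medium (1 array), Sto organoids in SI medium (2), SI organoids in Sto medium (1) and SI organoids in SI medium (3). Sto medium, which adds Wnt3a, Fgf10 and gastrin to the SI medium (ENR), was also the medium of the organoids from which stem cells were sorted. Per the labels, organoids of either organ were also cultured in SI medium so that they would differentiate. For SI organoids this medium is also the ordinary growth medium, so the 2 organs were not in the same state relative to growth there. Nothing in the labels says which replicates came from separate mice or clones, so the p-values measure only the spread between these samples.

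In the absorptive cells of the small intestine (enterocytes), fatty acids taken up from the gut lumen are bound by small carrier proteins and rebuilt into triglyceride at the endoplasmic reticulum. Mttp then loads that triglyceride onto newly made Apob, and the particle leaves the cell as a chylomicron that also carries Apoa1, Apoa4 and Apoc3. Enterocytes and hepatocytes are the main sites of the step of Mttp and Apob, and a stomach epithelium is not known for this pathway.

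The windows just before the start sites of Fabp2, Fabp1 and Apoa1 are shown because Fabp2 and Apoa1 were lower in both stem cell comparisons and Fabp1 had the largest difference between SI organoids in SI medium and stem cells. Each is the 250 bases before the RefSeq start site, 5′ to 3′ on the strand of the gene, on GRCm38.p6. Capitals mark matches on either strand to TTTAT (a core read by Cdx factors), CAATAAA (a longer Cdx match, which holds TTTAT on its other strand), AAAGTCC (an Hnf4 core), GTTAAT (part of an Hnf1 site), AGATAA (read by Gata factors) and TATAAA (the TATA box, which also holds TTTAT on its other strand).
Fabp2 chr3:122894822-122895071 (+ strand): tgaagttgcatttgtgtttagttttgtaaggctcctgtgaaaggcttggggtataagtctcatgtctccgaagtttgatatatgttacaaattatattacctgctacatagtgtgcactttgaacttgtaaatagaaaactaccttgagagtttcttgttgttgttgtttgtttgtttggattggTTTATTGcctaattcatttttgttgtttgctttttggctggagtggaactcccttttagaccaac
Fabp1 chr6:71199629-71199878 (+ strand): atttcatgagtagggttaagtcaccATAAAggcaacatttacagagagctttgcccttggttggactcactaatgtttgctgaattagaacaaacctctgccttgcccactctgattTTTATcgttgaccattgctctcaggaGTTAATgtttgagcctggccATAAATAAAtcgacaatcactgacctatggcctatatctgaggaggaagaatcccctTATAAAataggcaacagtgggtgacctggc
Apoa1 chr9:46228380-46228629 (+ strand): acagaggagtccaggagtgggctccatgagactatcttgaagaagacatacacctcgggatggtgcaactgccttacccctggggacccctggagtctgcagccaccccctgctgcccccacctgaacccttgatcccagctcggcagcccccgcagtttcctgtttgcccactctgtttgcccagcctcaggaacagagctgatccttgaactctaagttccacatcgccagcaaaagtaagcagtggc
The Fabp2 window held 1 match, where CAATAAA overlaps TTTAT, at position -65, counting back from the start site. The Fabp1 window held 5 matches to TTTAT, 1 to GTTAAT and 1 to TATAAA, and the Apoa1 window held no match to any of the 6. Of the 10 genes, 7 had a window in the table. TTTAT was found in 4 of the 7 (Fabp1, Fabp2, Apob and Cd36) and in 37.3% of all 32851 windows of that length, and CAATAAA in 1 of the 7 and in 4.2% of all windows. Apoa1, Apoc3 and Apoa4 are neighbours on chromosome 9, within 46228630 to 46243458, while the other 7 lie on chromosomes 3 (Fabp2 and Mttp), 5 (Cd36), 6 (Fabp1), 7 (Dgat2), 12 (Apob) and 15 (Dgat1).

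One library went against its label. SI organoids in SI medium 1 had Cdx2 at 5.52, against 9.92 and 9.67 in the other SI organoids in SI medium, and all 10 genes were lower in it than in those 2 libraries. Its 8 marker genes of stomach pit and gland cells had a mean log2 level of 7.96, against 5.66 and 4.94 in those 2. Each organoid result is therefore given with and without the library labelled SI organoids in SI medium 1. The 10 genes were among the grounds for setting it apart, so p-values without it partly follow from that choice and may be too small. Cdx2 was at 8.41 and 4.88 in Cdx2null SI SCs 1 and 2, 4.67 to 5.08 in control Sto SCs and 8.94 to 10.1 in control SI SCs, and the probes of Cdx2 include exons that the deletion leaves in place. Lgr5 was at 10.8 to 11.6 in all sorted stem cells, 9.29 to 10.3 in 5 organoid arrays, and 4.20 and 4.32 in Sto organoids in SI medium. The values of control SI SCs 3, as of SI organoids in SI medium 3, had been rounded on the linear scale, and their upper quartiles were 7.50 and 7.57, against 7.79 to 7.90 on the other arrays.

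The first comparison asked what stem cells of the small intestine lose of the fat absorption genes when Cdx2 is removed. Apoa1 and Fabp2 fell in Cdx2null SI SCs, 8.74-fold and 8.02-fold under control SI SCs, to values that overlapped those of control Sto SCs. The 8 others had lower means too but were not called at an adjusted p under 0.05 and at least 2-fold (limma, Benjamini-Hochberg over all 18820 genes). Of all genes 1.52% were called, 0.595% as lower and 0.93% as higher, and of the 10 genes 2 were called, both as lower. The median difference of the 10 genes was -1.66 on the log2 scale, against 0.03 over all genes. When control Sto SCs were set against control SI SCs, 2.86% of all genes were called, 0.914% as lower and 1.94% as higher, and of the 10 genes the same pair, Apoa1 and Fabp2, as lower.

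Apoa1, the main protein of high density lipoprotein, read 4.29 and 4.19 in Cdx2null SI SCs, 4.61 and 4.26 in control Sto SCs, and 6.28, 8.12 and 7.70 in control SI SCs. The control SI SCs lay above both other groups with no overlap. The difference was -3.13 for Cdx2null SI SCs minus control SI SCs (SE 0.494, adjusted p = 0.032) and -2.93 for control Sto SCs minus control SI SCs (SE 0.494, adjusted p = 0.0291), 2 comparisons that share the control SI SCs. Fabp2, the intestinal fatty acid binding protein of the enterocyte cytosol, read 3.64 and 3.28 in Cdx2null SI SCs, 3.14 and 3.45 in control Sto SCs, and 5.77, 6.85 and 6.77 in control SI SCs. Again the control SI SCs stood apart, and the differences were -3.003 (SE 0.338, adjusted p = 0.00903) and -3.17 (SE 0.338, adjusted p = 0.00598). Apoa1 lost its call in both comparisons when control SI SCs 2 or 3, or any library of the smaller group, was left out, with adjusted p up to 0.189 for Cdx2null SI SCs and 0.168 for control Sto SCs. Of these fits without 1 library, Fabp2 lost its call in the one without Cdx2null SI SCs 2 (adjusted p = 0.0711) and the one without control Sto SCs 1 (adjusted p = 0.0513). By the methods' t-test with Benjamini-Hochberg adjustment over all genes, which called 0 genes of the 18820 in both comparisons (498 and 828 at an unadjusted p under 0.05 and 2-fold), the adjusted p was 0.658 and 0.387 for Apoa1 and 0.514 and 0.248 for Fabp2, for Cdx2null SI SCs and for control Sto SCs.

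Apob, the structural protein of chylomicrons, was the gene on which the Cdx2null libraries disagreed. It read 9.39 and 6.22 in Cdx2null SI SCs, 5.95 and 6.21 in control Sto SCs, and 10.01, 9.70 and 9.38 in control SI SCs. The first Cdx2null library lay inside the range of the control SI SCs and the second beside the control Sto SCs, and the first is also the library with Cdx2 at 8.41, a link that was not tested. The difference was -1.89 (SE 0.801, adjusted p = 0.432) for Cdx2null SI SCs and -3.61 (SE 0.801, adjusted p = 0.0671) for control Sto SCs, each minus control SI SCs. Without Cdx2null SI SCs 1 the first of these was -3.47 (adjusted p = 0.00671), and without Cdx2null SI SCs 2 it was -0.31, so the choice of library decided the call. Each of these fits had a single Cdx2null array, which was assumed to vary like the other groups. Mttp, which hands lipid to Apob, read 5.92 and 6.6005 in Cdx2null SI SCs, 6.50 and 6.91 in control Sto SCs, and 7.87, 9.04 and 7.86 in control SI SCs. All control SI SCs were above the other arrays, with differences of -1.99 (SE 0.401, adjusted p = 0.0757) and -1.55 (SE 0.401, adjusted p = 0.104), neither called. By Xist and the Y-linked Kdm5d, control SI SCs 1 and 3 came from male cells and the other stem cell arrays from female cells. With sex as a term of the limma fit, differences from control SI SCs rest on control SI SCs 2, the only female array of that group. They were then -2.77 and -2.33 for Mttp and -2.81 and -2.71 for Apoa4, for Cdx2null SI SCs and for control Sto SCs.

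**Figure D1:**
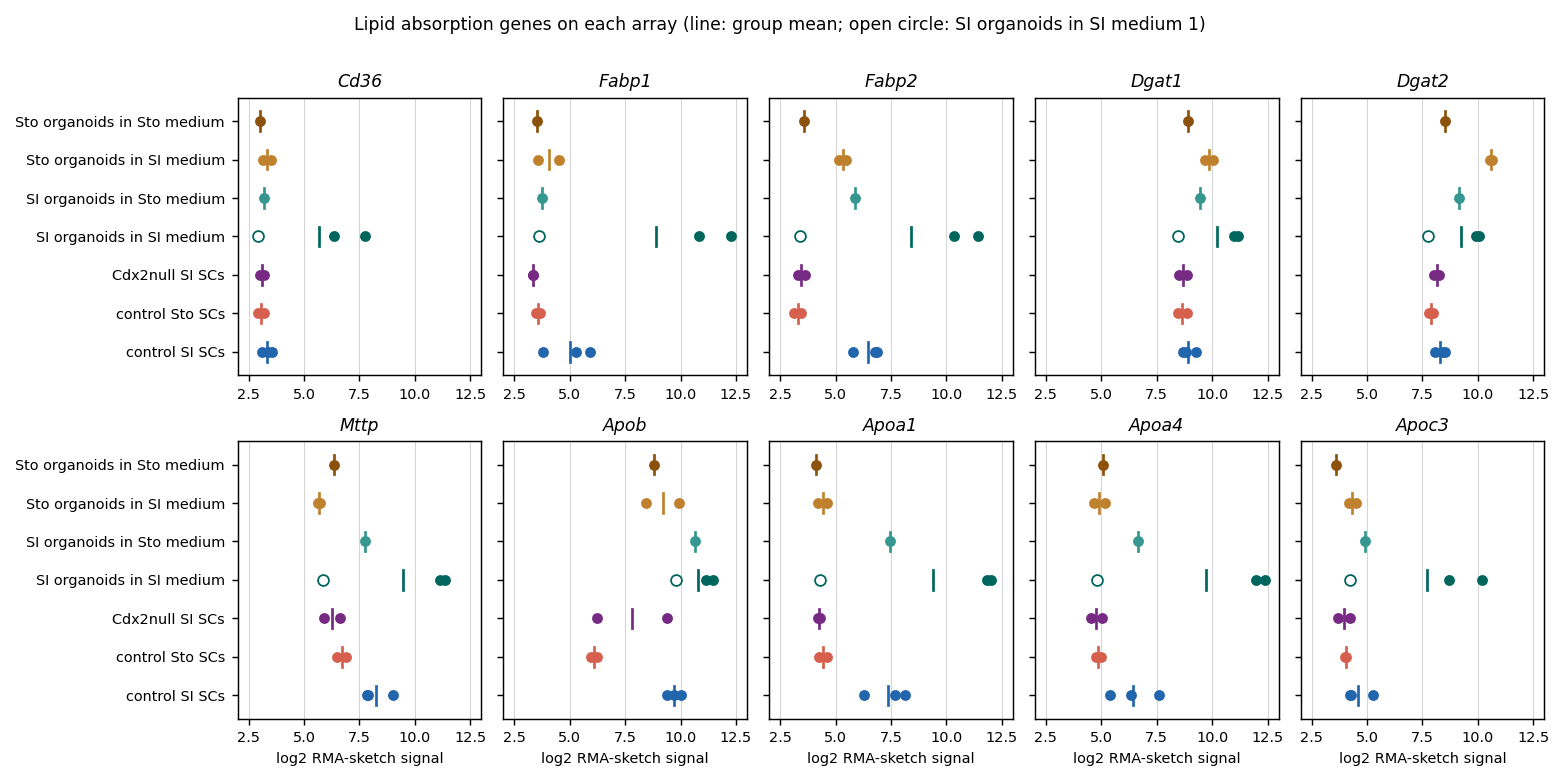
Log2 signal of the 10 genes (x axis) on each of the 14 arrays, with groups on the y axis, a point per array and a line at each group mean; the open circle is the library labelled SI organoids in SI medium 1. Fabp2 is at most 3.64 in Cdx2null SI SCs and control Sto SCs, against at least 5.77 in control SI SCs, and the highest values of 9 genes are in SI organoids in SI medium 2 and 3.

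Apoa4, a satiety-linked apolipoprotein of chylomicrons, read 5.01 and 4.53 in Cdx2null SI SCs, 5.0005 and 4.74 in control Sto SCs, and 5.41, 7.59 and 6.33 in control SI SCs. Fabp1, the liver-type carrier that is also made in the proximal gut, read 3.36 and 3.36 in Cdx2null SI SCs, 3.47 and 3.66 in control Sto SCs, and 3.80, 5.29 and 5.91 in control SI SCs. For both genes the control SI SCs did not overlap the other groups but spread over more than 4-fold among themselves, control SI SCs 1 lying near the other groups. The differences from control SI SCs were -1.67 (SE 0.562, adjusted p = 0.283) in Cdx2null SI SCs and -1.57 (SE 0.562, adjusted p = 0.224) in control Sto SCs for Apoa4. For Fabp1 they were -1.64 (SE 0.545, adjusted p = 0.277) and -1.44 (SE 0.545, adjusted p = 0.258).

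Apoc3, an inhibitor of lipoprotein lipase, read 4.21 and 3.71 in Cdx2null SI SCs, 4.06 and 4.02 in control Sto SCs, and 4.21, 4.26 and 5.28 in control SI SCs, and only the last of these stood out. Cd36 lay between 2.91 and 3.54 in all 7 stem cell arrays, and the 3 groups overlapped. Dgat1 lay between 8.45 and 9.25 and Dgat2 between 7.81 and 8.50 in the same arrays, and only for Dgat2 did a group, the control Sto SCs, lie below control SI SCs with no overlap. For Cd36, Dgat1 and Dgat2 the differences from control SI SCs were between -0.23 and -0.16 in Cdx2null SI SCs and between -0.42 and -0.25 in control Sto SCs. The intervals of Dgat1 and Dgat2 reached at most -0.78 and -0.85, which is under 2-fold. Those of Cd36 do not bound a fold change, as its signal lay at percentiles 7.7 to 19.8 of all genes on these arrays.

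Set directly against each other, Cdx2null SI SCs and control Sto SCs differed in none of the 10 genes by the limma test, but no gene of the 18820 was called either (0% called, and 15 genes at an unadjusted p under 0.05 and 2-fold by the methods' t-test), so the test has little to say on likeness. The differences of 9 genes lay between -0.45 and 0.25. Apob was the exception at 1.72 (SE 0.877, 95% interval -0.35 to 3.80), and without Cdx2null SI SCs 2 it was 3.31 (SE 0.303, adjusted p = 0.0451) in the remaining Cdx2null library, a single array whose spread was taken from the other groups.

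**Figure D2:**
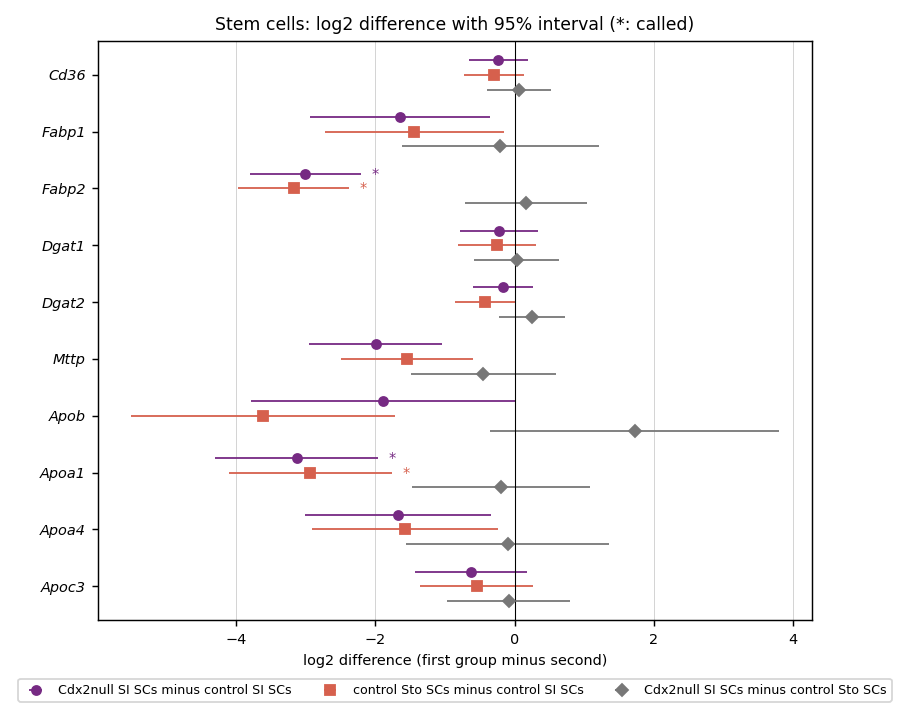
Log2 difference of each gene (x axis, first group minus second) with its 95% limma interval for the 3 stem cell comparisons; an asterisk marks a called gene. Only Fabp2 and Apoa1 carry an asterisk, at -3.003 and -3.13 for Cdx2null SI SCs minus control SI SCs, while the difference of Apob between Cdx2null SI SCs and control Sto SCs is the only one of that comparison beyond 1.

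Some other genes of the pathway were called in Cdx2null SI SCs against control SI SCs. Of all genes 1.52% were called there, 0.595% as lower and 0.93% as higher. For control Sto SCs against control SI SCs these shares were 2.86%, 0.914% and 1.94%. Of 9 measured genes of lipid uptake, 1 fell in Cdx2null SI SCs: Rbp2, the retinol carrier of enterocytes (-2.48, SE 0.231, adjusted p = 0.00504 by limma). None of 10 genes of triglyceride and cholesteryl ester synthesis was called in either direction. Of 17 genes of chylomicron assembly and export, 2 fell, A1cf, the partner of the enzyme that edits Apob mRNA (-2.88, adjusted p = 0.00601), and Apoc2, the activator of lipoprotein lipase (-2.69, adjusted p = 0.0138). One rose, the cholesterol exporter Abca1 (1.68, adjusted p = 0.0459). In control Sto SCs the same 4 genes were called against control SI SCs, Rbp2 at -2.71, A1cf at -2.89, Apoc2 at -2.84 and Abca1 at 1.89. A1cf read 2.89 and 2.75 in Cdx2null SI SCs, against 5.09, 5.98 and 6.02 in control SI SCs.

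Of 10 measured transcription factors and cofactors known to act on these genes, 2 fell in Cdx2null SI SCs, Hnf4g (-1.55, adjusted p = 0.00601) and Cdx1 (-2.75, adjusted p = 0.00739), and both fell in control Sto SCs too (-1.38 and -2.51). Hnf4a, Gata4, Ppara and Creb3l3 were not called in either comparison. Nor was Cdx2, at 8.41 and 4.88 in Cdx2null SI SCs, 4.67 to 5.08 in control Sto SCs and 8.94 to 10.1 in control SI SCs. A factor that was not called can thus still differ widely. Hnf4a read 10.7 and 10.2 in Cdx2null SI SCs, against 11.3, 11.6 and 10.9 in control SI SCs, with no overlap. Markers of mature enterocytes moved in part: 4 of 11 fell in Cdx2null SI SCs (Alpi, Sis, Slc5a1 and Cdhr5) and 5 of 11 in control Sto SCs. The other 7 were not called in Cdx2null SI SCs. Among those 7, Anpep was at 11.5 and 12.02, against 11.2 to 11.6 in control SI SCs, and Vil1 at 10.5 and 10.5, against 10.1 to 10.9. The mean log2 level of the 11 markers was 5.37 to 5.45 in Cdx2null SI SCs, 5.17 to 5.37 in control Sto SCs and 7.16 to 7.58 in control SI SCs. Their summed linear signal was 4646 to 5798, 4724 to 5311 and 5063 to 7472 in the same order. These ranges overlapped, and Anpep was the brightest marker on each of these arrays. Their part in the differences was not tested. Stomach pit and gland markers had 3 of 8 higher in Cdx2null SI SCs and 5 of 8 in control Sto SCs.

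The next comparison asked how the genes differed by organ of origin in organoids cultured in SI medium. In SI organoids in SI medium 2 and 3 all of the genes but Dgat2 reached their highest levels over the 14 arrays. Apoa1, Apoa4, Fabp1, Fabp2 and Mttp all read above 10 there, and the signals of Apoa1 and Apoa4 were 181-fold and 155-fold lower in Sto organoids in the same medium. The arrays carry no detection call, and the stomach values of both genes were below the median of all genes on their arrays, so these ratios of signals may understate the difference. With all labelled libraries no gene was called (1.41% of all genes were, 0.887% as lower and 0.526% as higher), and the library labelled SI organoids in SI medium 1 lay within the range of the stomach arrays for 8 of the 10 genes. Without it 9 of the 10 genes were called as lower in Sto organoids, where 13.9% of all genes were called, 6.29% as lower and 7.57% as higher. The median difference of the 10 genes was -3.22 with it and -5.33 without it, against 0.04 and 0.08 over all genes. In bulk organoids, fewer cells of a type and less RNA per cell cannot be told apart.

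Apoa1 read 4.64 and 4.21 in Sto organoids in SI medium, against 4.32, 11.8 and 12.03 in SI organoids in SI medium. Apoa4 read 5.15 and 4.66, against 4.80, 11.99 and 12.4, and its dimmer second probe set showed the same split, with 7.87 and 8.02 in SI organoids in SI medium 2 and 3 and at most 4.51 elsewhere. Both genes were thus at stomach level in the library that goes against its label and far above it in the others. Apoa1 differed by -4.97 (SE 2.54, adjusted p = 0.424 by limma) with all libraries and by -7.50 (SE 0.227, adjusted p = 6.19e-05) without that library. For Apoa4 the values were -4.82 (SE 2.47, adjusted p = 0.424) and -7.28 (SE 0.257, adjusted p = 6.19e-05). Apoc3 read 4.48 and 4.19 in Sto organoids in SI medium, against 4.24, 8.70 and 10.2 in SI organoids in SI medium, a difference of -5.11 without that library (SE 0.474, adjusted p = 0.00159).

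The carriers split in the same way. Fabp1 read 3.58 and 4.51 in Sto organoids in SI medium, against 3.59, 10.8 and 12.3 in SI organoids in SI medium. Its difference without that library was -7.50 (SE 0.527, adjusted p = 0.000521). Fabp2 read 5.48 and 5.18 in Sto organoids in SI medium, against 3.41, 10.3 and 11.4 in SI organoids in SI medium, so both Sto organoids lay above the library that goes against its label and below the other 2. Its difference without that library was -5.55 (SE 0.37, adjusted p = 0.000425). Cd36 read 3.52 and 3.17 in Sto organoids in SI medium, against 2.93, 6.37 and 7.75 in SI organoids in SI medium, and was thus raised on 2 of the 14 arrays only (difference -3.72 without that library, SE 0.451, adjusted p = 0.00431).

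Mttp read 5.73 and 5.64 in Sto organoids in SI medium, against 5.88, 11.2 and 11.4 in SI organoids in SI medium, and its difference without the library that goes against its label was -5.58 (SE 0.195, adjusted p = 6.19e-05). Apob had the smallest such gap of the secreted proteins. It read 8.44 and 9.94 in Sto organoids in SI medium, against 9.78, 11.5 and 11.1 in SI organoids in SI medium, a difference of -2.11 without that library (SE 0.477, adjusted p = 0.0337). Of the enzymes of the last step of triglyceride synthesis, Dgat1 was also lower in Sto organoids without that library, by a smaller gap, and only Dgat2 went the other way. Dgat1 read 9.69 and 10.1 in Sto organoids in SI medium, against 8.44, 11.2 and 10.97 in SI organoids in SI medium (-1.20 without that library, SE 0.22, adjusted p = 0.0168). Dgat2 was higher in the Sto organoids, at 10.6 and 10.6, than in any SI organoid in SI medium, at 7.74, 10.035 and 9.89, and was not called with that library (1.37, SE 0.753, adjusted p = 0.456) or without it (0.63, SE 0.188, adjusted p = 0.0779).

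**Figure D3:**
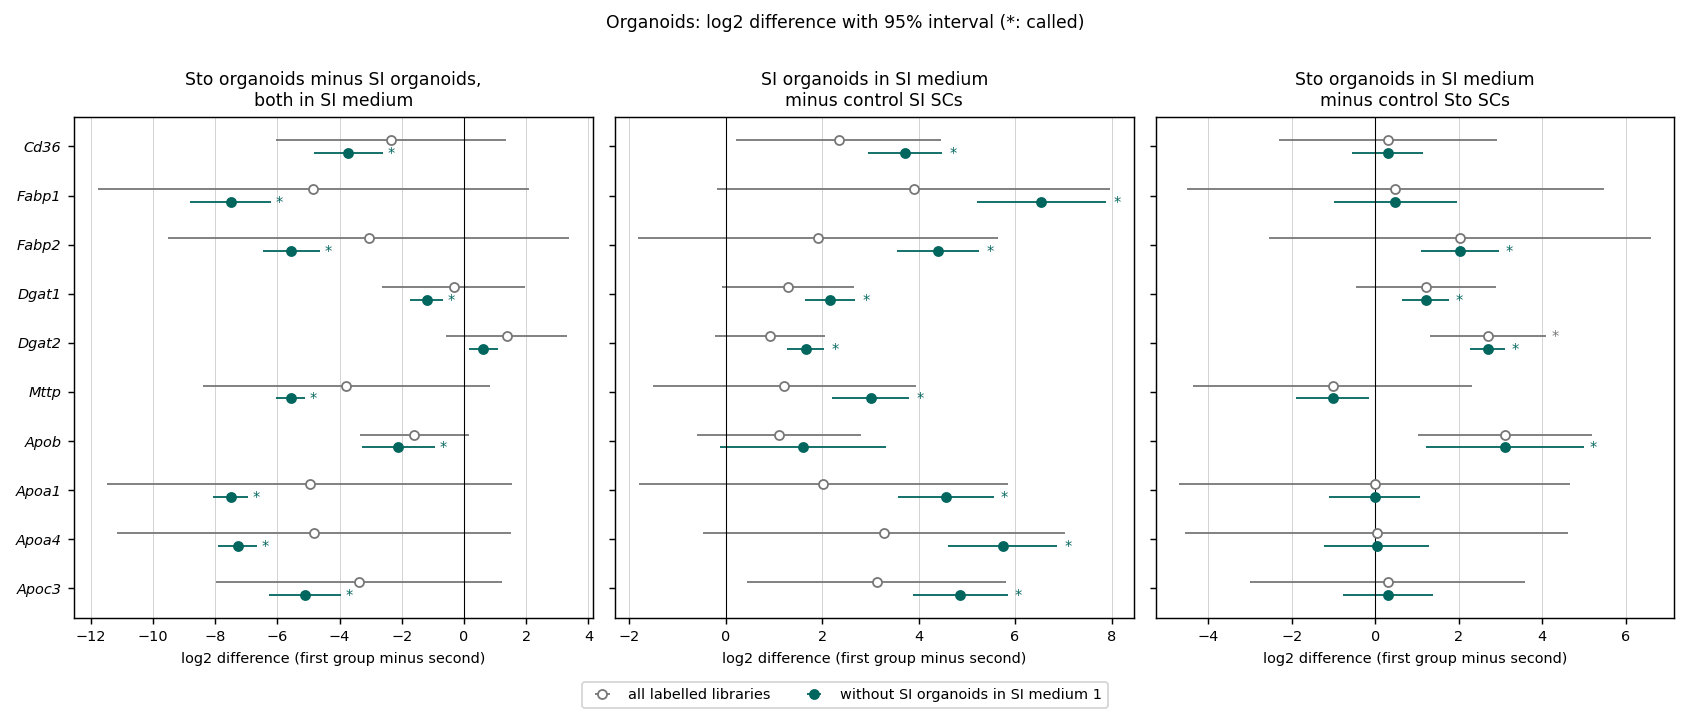
Log2 difference of each gene (x axis, first group minus second) with its 95% limma interval in 3 comparisons of organoids; open grey points use all labelled libraries, filled points leave out the library labelled SI organoids in SI medium 1, and an asterisk marks a called gene. With that library left out 9 genes are called in the left panel, 9 in the middle panel and 4 in the right panel, against 0, 0 and 1 with it.

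Other genes of the pathway, given here without that library, followed the carriers in part. Of 9 genes of lipid uptake 3 fell in Sto organoids in SI medium, the fatty acid transporter Slc27a2 (-6.31), the cholesterol transporter Npc1l1 (-5.13) and Rbp2 (-3.71), and the epidermal-type carrier Fabp5 rose (2.63). Of 10 genes of triglyceride and cholesteryl ester synthesis 1 fell, Mogat2, which makes the diacylglycerol that Dgat1 and Dgat2 use (-1.93). Of 17 genes of assembly and export 5 fell (A1cf, Tm6sf2, Apoc2 and the paired sterol exporters Abcg5 and Abcg8), at -1.64 to -5.88. Of 10 factors 6 fell: Cdx2 (-4.65), Creb3l3 (-3.67), Cdx1 (-3.58), Ppara (-3.06), Hnf4g (-2.85) and Nr1h3 (-1.04). With all labelled libraries none of these 46 genes was called. Enterocyte markers had 8 of 11 lower in Sto organoids, with a mean log2 level of 5.09 to 5.64 there, against 10.02 to 10.1 in SI organoids in SI medium 2 and 3 and 5.14 in the library that goes against its label, and summed linear signals of 1702 to 3463, 20646 to 22247 and 3374. Stomach pit and gland markers had 6 of 8 higher and 1 lower. Of 9 hepatocyte markers 2 were lower in Sto organoids (Ttr and Cyp3a11). The defining hepatocyte marker Alb was at 3.36 to 4.25 on all arrays but SI organoids in SI medium 3, where it was at 8.04. The part of these markers in the differences was not tested.

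Whether the medium mattered could be set out with only 1 array per organ in Sto medium. SI organoids in Sto medium had all 10 genes below SI organoids in SI medium 2 and 3: Apoa1 at 7.46, Apoa4 at 6.67, Apoc3 at 4.91, Mttp at 7.74, Apob at 10.6, Fabp1 at 3.76, Fabp2 at 5.86, Cd36 at 3.21, Dgat1 at 9.46 and Dgat2 at 9.14. Against control SI SCs, which came from organoids in the same medium, Apoa1, Apoa4, Apoc3, Fabp2 and Cd36 there lay within the range. Mttp and Fabp1 lay just below it, and Apob, Dgat1 and Dgat2 above it. Sto organoids in Sto medium read 3.56 for Fabp2, 8.50 for Dgat2 and 8.89 for Dgat1, each below both Sto organoids in SI medium, while Apoc3 (3.58), Apoa1 (4.10), Cd36 (3.03) and Fabp1 (3.51) were below both by smaller gaps. Apoa4 (5.08) and Apob (8.78) lay between them, and Mttp (6.34) was above both. In a limma fit with organ and medium as terms, the 10 genes had differences of -2.97 to -0.28 for Sto medium minus SI medium with all libraries and -4.16 to -0.54 without the library that goes against its label. No gene of the 10 was called in either fit, where 0% and 0.0266% of all genes were, the second being 0.0213% as lower and 0.00531% as higher. The direction with all libraries was not stable: with the replicate number as a block 7 of the 10 genes were above 0, by 0.0502 to 1.30, and none was called. In that block number 1 holds the library that goes against its label, and the number of SI organoids in Sto medium is not from a label. The smallest adjusted p without that library and without the block was that of Dgat1 (-1.30, SE 0.22, adjusted p = 0.118 by limma).

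Organoids in SI medium differed from sorted stem cells both in being unsorted and in their medium. The only SI array that was unsorted but in Sto medium is the single one given above, and the parts of sorting and medium were not tested. SI organoids in SI medium exceeded control SI SCs in all 10 means, by 0.91 to 3.90 on the log2 scale, but none was called with all labelled libraries (0.159% of all genes were, 0.0372% as higher and 0.122% as lower). Without the library that goes against its label 9 were called as higher, where 5.11% of all genes were called, 2.93% as higher and 2.18% as lower. The differences were then 6.55 for Fabp1 (SE 0.597, adjusted p = 0.000166), 5.74 for Apoa4 (SE 0.507), 4.86 for Apoc3 (SE 0.438), 4.56 for Apoa1 (SE 0.442), 4.41 for Fabp2 (SE 0.379), 3.72 for Cd36 (SE 0.343), 3.01 for Mttp (SE 0.354), 2.16 for Dgat1 (SE 0.229) and 1.66 for Dgat2 (SE 0.169), with adjusted p of at most 0.000851. Apob was the exception at 1.60 (SE 0.766, adjusted p = 0.317). With the replicate number as a block the same 9 genes were called without that library, with adjusted p of at most 0.00254, and none with all labelled libraries, where the block gave 51 calls over all genes in place of 30. By Xist and Kdm5d this block joins arrays of opposite sex at numbers 1 and 3, so it does not stand for shared animals there. This comparison and that of Sto with SI organoids share the SI organoids in SI medium.

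Within the same comparison, 4 of 9 uptake genes, 2 of 10 synthesis genes, 9 of 17 assembly and export genes and 5 of 10 factors rose and none fell. Among them were Rbp2 (4.66), Slc27a2 (5.01), Abcg5 (4.37), Abcg8 (4.11), Cideb, a lipid droplet protein that aids lipoprotein lipidation (2.31), and the factors Creb3l3 (4.68) and Ppara (3.12). Enterocyte markers had 6 of 11 higher, and their mean log2 level was 10.02 to 10.1 in SI organoids in SI medium 2 and 3, against 7.16 to 7.58 in control SI SCs. Their part was not tested.

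Sto organoids in SI medium were also set against control Sto SCs. With all labelled libraries, Dgat2 alone of the 10 genes was called as higher in Sto organoids in SI medium than in control Sto SCs (6.03% of all genes were called, 2.3% as higher and 3.74% as lower). It read 10.6 and 10.6, against 7.98 and 7.81 (2.70, SE 0.617, adjusted p = 0.0302). This call was lost on leaving out any of these 4 libraries. When the library that goes against its label, which enters the shared spread, was left out of the fit, 4 genes were called (9.23% of all genes were, 3.8% as higher and 5.44% as lower). These were Dgat2 (2.70, SE 0.185, adjusted p = 4.18e-05), Apob at 8.44 and 9.94 against 5.95 and 6.21 (3.11, SE 0.839, adjusted p = 0.0412), Fabp2 at 5.48 and 5.18 against 3.14 and 3.45 (2.03, SE 0.415, adjusted p = 0.012) and Dgat1 (1.21, SE 0.251, adjusted p = 0.0126). Apoa1, Apoa4, Apoc3, Fabp1 and Cd36 had differences of -0.01 to 0.48, and Mttp of -1.02 (adjusted p = 0.136). Thus Fabp2 and Apob lay above control Sto SCs with no overlap in the same organoids in which Apoa1 and Apoa4 overlapped them and Mttp lay below them.

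In that fit 2 of 9 uptake genes rose (Rbp2 at 3.66 and Fabp5 at 1.62), as did 2 of 10 synthesis genes (Agpat2 and the droplet coat Plin2), 6 of 17 assembly and export genes (Cideb, Apobec1, Mia2, Pla2g12b, Apoc2 and Tm6sf2) and 2 of 10 factors (Nr1h4 and Creb3l3), while the coactivator Ppargc1a fell (-3.18). Pla2g12b, which acts in the secretion of triglyceride from mouse liver, read 9.58 and 9.43 in Sto organoids in SI medium, against 5.68 and 6.48 in control Sto SCs. With all labelled libraries 2 of 10 synthesis genes and 2 of 17 assembly and export genes were called as higher. Enterocyte markers did not move as a list: 1 of 11 rose (Alpi, at 6.07 and 10.5, against 3.49 and 3.67) and 1 fell (Anpep). Stomach pit and gland markers had 4 of 8 higher and 2 lower, and the adipocyte list had Cidec alone higher (3.23), with Adipoq at 3.71 to 4.46 on every array.

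The effect of organ could be compared between organoids in SI medium and stem cells in a single limma contrast. With all labelled libraries none of the 10 genes was called (0.845% of all genes were, 0.478% as lower and 0.367% as higher). Without the library that goes against its label 8 were called, where 4.54% of all genes were called, 2.88% as lower and 1.66% as higher. The stomach deficit was larger in organoids for Fabp1, Apoa4, Apoa1, Apoc3, Mttp, Cd36 and Fabp2, and Dgat2 differed in the other direction. Organoids and stem cells differ here in sorting and in medium. For Apoa1, Apoa4, Apoc3, Fabp1 and Cd36 the stomach signals were low in both, so the contrast largely repeats SI organoids in SI medium minus control SI SCs. Apob was not called at 1.504 (SE 1.14, adjusted p = 0.626), its stomach deficit being -3.61 in stem cells and -2.11 in organoids, nor was Dgat1, at -0.95 (SE 0.339, adjusted p = 0.183).

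**Figure D4:**
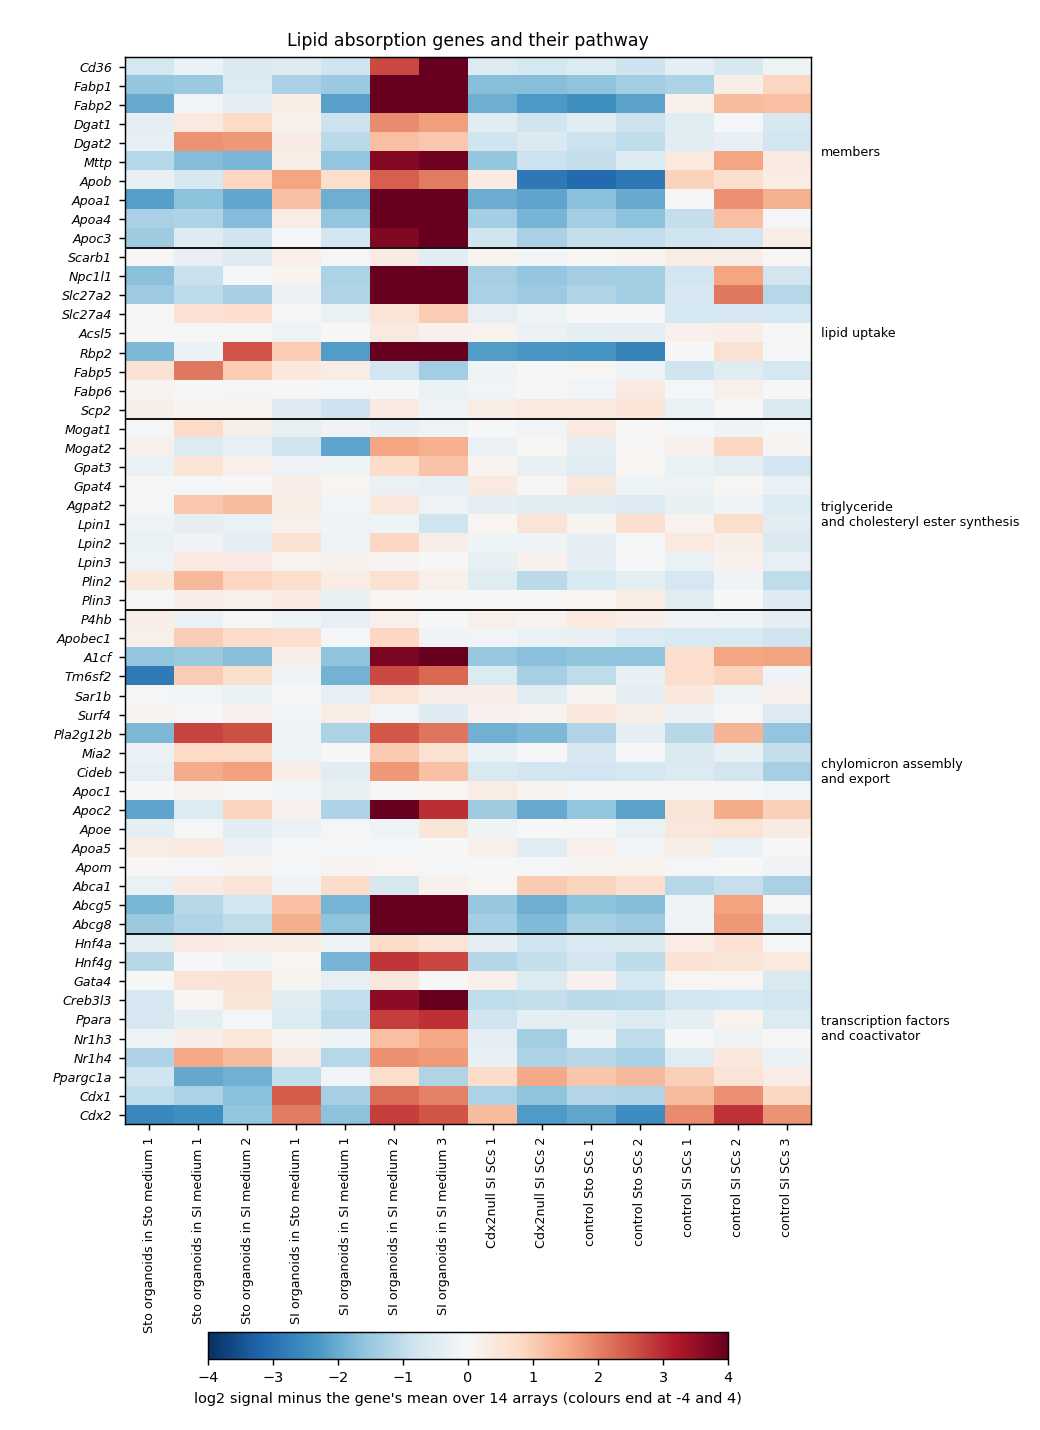
Log2 signal of the 10 genes and of 46 other genes of the pathway (rows) on the 14 arrays (columns), each minus the mean of that gene over the arrays; red is above and blue below the mean, and colours end at -4 and 4. SI organoids in SI medium 2 and 3 are red for most of the 10 genes and for Npc1l1, Slc27a2, Rbp2, A1cf, Abcg5 and Abcg8, while Dgat2, Pla2g12b and Cideb are also red in Sto organoids in SI medium.

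Across the 14 arrays the 7 genes other than Apob, Dgat1 and Dgat2 followed each other, with Pearson's r of 0.846 to 0.986 over their 21 pairs. Dgat1 had r of 0.685 to 0.85 with these 7 genes. Apob had r of 0.473 to 0.719 with the other 9 genes and Dgat2 had r of 0.263 to 0.568 with the 8 genes other than Dgat1. These are descriptions over arrays that share groups, and 2 arrays hold the highest values of 9 of the 10 genes. In order of group means, SI organoids in SI medium came first for all but Dgat2, yet overlapped the next group each time because of the library that goes against its label. For Apoa1, Apoa4, Apoc3 and Mttp, as for Apob and Fabp2, the 3 groups of small intestine with the floxed allele in place were the top 3. For Apoa4 the 4 lower groups all overlapped their neighbours. For Dgat2 the first group was Sto organoids in SI medium, which did not overlap any other.

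The 3 other genes whose pattern over the 14 arrays was most like each gene were ranked by Pearson's r. Fabp2 was nearest to the brush border peptidase Mep1b (r = 0.982), then Cyp2c66 (r = 0.971) and Hnf4g (r = 0.97). Apoa1 was nearest to Clec2h (r = 0.995), Aoc1 (r = 0.991) and the nuclear receptor Nr5a2 (r = 0.99), and Apoa4 to Clca4b, Chp2 and Slc39a5 (r = 0.992 to 0.994). Apoc3 was nearest to Cyp3a11, Defa31 and Pnliprp1 (r = 0.989 to 0.994), Fabp1 to Cyp2c70, Pde3a and Fmo4 (r = 0.984 to 0.989), Mttp to Abcg2, Tkfc and Gm609 (r = 0.976 to 0.977) and Cd36 to Enpep, Cyp2c38 and Prrx1 (r = 0.992). Apob had no equally close companion, the nearest being Tm4sf5 (r = 0.928), As3mt (r = 0.901) and Aprt (r = 0.879). Dgat2 was nearest to Capn9, Sult1d1 and Batf2 (r = 0.953 to 0.962), none of which was among the nearest of another gene of the 10, and Dgat1 varied too little over the arrays (SD 0.892) for this ranking.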

How the data were processed

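RNA of 7 arrays of sorted stem cells and 7 of whole organoids had been hybridised to Affymetrix Mouse Gene ST 1.1 arrays. The deposited values are log2 signals of 35556 probe sets, which the authors summarised and normalised by RMA-sketch with Affymetrix Power Tools (version not given in the sources used here). They carry no detection call, and the small number of arrays limits the precision. On control SI SCs 3, as on SI organoids in SI medium 3, all values had been rounded to 1 decimal on the linear scale before the log2 was taken.

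Probe sets with 1 gene in the platform table (21218) were used, 1881 with several genes and 12457 with none were left out, and the probe set with the highest mean stood for each of 18820 genes. The 10 genes and the other lists were chosen with earlier results of these data known. Differences were fitted with limma 3.58.1 (lmFit and eBayes, R 4.3.3) on all 18820 genes, within the 7 stem cell arrays, within the 7 organoid arrays, or over all 14 arrays for comparisons across both. Sto medium against SI medium was fitted with organ as a second term. A gene was called at a Benjamini-Hochberg adjusted p under 0.05 and at least 2-fold. The script was tested on simulated data. Genes named were the 10, Cdx2 and Lgr5, called members of the lists with the smallest adjusted p, and the 3 genes nearest to each gene by Pearson's r where its SD over the arrays was at least 1; individual levels of A1cf, Pla2g12b, Alpi, Alb and Adipoq were added after their values were seen.

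Equal replicate numbers were taken to pair samples only for SI organoids in SI medium and control SI SCs, whose deviations from the group means correlated at 0.165 to 0.275 over 3 pairs. This comes from the data, and the third pair is the 2 rounded arrays. By Xist and Kdm5d all SI organoids in SI medium were female, while control SI SCs 1 and 3 were male. Numbers 1 and 3 therefore do not join samples of the same animal. Alternatives were the methods' t-test, fits of the compared groups only, quantile normalisation, median centring, a filter on dim genes, replicate number or sex as a term, leaving out the 2 rounded arrays, and leaving out each library. Promoter windows and gene positions are from RefSeq on GRCm38.p6; the genes without a window were Apoc3, Dgat1 and Dgat2.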

Additional observations from a re-analysis of the deposited data

Results flagged for a closer look

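For 8 of the 10 genes the difference between organs was called as different in organoids in SI medium and in stem cells. The test was a single limma contrast over all genes (Sto minus SI in organoids, minus Sto minus SI in stem cells). It left out the library labelled SI organoids in SI medium 1. The 10 genes were among the grounds for setting that library apart, so these p-values partly follow from that choice and may be too small. The contrast was -6.07 for Fabp1 (SE 0.885, adjusted p = 0.00531), -5.71 for Apoa4 (SE 0.751, adjusted p = 0.00301), -4.57 for Apoa1 (SE 0.655, adjusted p = 0.00484) and -4.57 for Apoc3 (SE 0.65, adjusted p = 0.00467). It was -4.03 for the lipid transfer protein Mttp (SE 0.526, adjusted p = 0.00287), -3.42 for the fatty acid receptor Cd36 (SE 0.509, adjusted p = 0.00576) and -2.38 for Fabp2 (SE 0.562, adjusted p = 0.0471). Dgat2, an enzyme of the last step of triglyceride synthesis, was the 1 of the 8 above 0, at 1.04 (SE 0.25, adjusted p = 0.0492). With all labelled libraries none of the 8 was called: the contrast of Fabp2 was then 0.11 (SE 2.62) and that of Dgat2 1.78 (SE 0.797), while the other 6 lay between -3.41 and -2.04 with adjusted p of at least 0.729. Leaving out control SI SCs 3 as well, Fabp2 was at -2.53 with an adjusted p of 0.0537, and the 7 others were called. Organoids and stem cells differ here in sorting and in medium. Between Sto organoids in SI medium and control Sto SCs, Apoa1, Apoa4, Apoc3, Fabp1 and Cd36 differed by -0.01 to 0.48, with signals below the array medians. For these genes the contrast largely repeats SI organoids in SI medium minus control SI SCs.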

How the results depend on the processing

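Over the comparisons, 652 of 730 member differences under alternatives other than leaving out 1 library kept their direction and their side of the threshold, 51 gained a call, 11 lost one and 16 changed sign. For Cdx2null SI SCs against control SI SCs, 2 genes were called, and 0 by the methods' t-test after adjustment, 1 with only the groups compared, 1 with the replicate block (Mttp, adjusted p = 0.029, while Apoa1 at 0.108 and Fabp2 at 0.051 lost their calls), 4 with sex as a term, 1 without the 2 rounded arrays, and 0 to 3 on leaving out a library (0 without Cdx2null SI SCs 2). Of all genes, 287 were called there, against 498 by the methods' t-test unadjusted, 0 after adjustment, 458 with median centring and 185 without the rounded arrays. In fits with sex as a term, differences from control SI SCs rest on control SI SCs 2 alone. For control Sto SCs against control SI SCs, 2 genes were called, and 0 by the methods' t-test after adjustment, 2 with the replicate block (Fabp2 and Mttp, while Apoa1 at 0.0796 lost its call), 4 with median centring, 4 with sex as a term, 1 without the rounded arrays, and 0 to 3 on leaving out a library (0 without control Sto SCs 1). For Cdx2null SI SCs against control Sto SCs the count was 0 to 1. It was 0 to 9 for Sto against SI organoids and for SI organoids in SI medium against control SI SCs, 0 to 8 for the difference of organ effects, and 0 throughout for the medium. The highest counts came from leaving out SI organoids in SI medium 1. For Sto organoids in SI medium against control Sto SCs, 1 gene was called, and 4 by the methods' t-test unadjusted, 0 after adjustment, 5 with only the groups compared, 0 on leaving out any of its 4 libraries, and 4 without SI organoids in SI medium 1. Leaving out SI organoids in SI medium 1 and control SI SCs 3, chosen after seeing the data as was the last alternative, gave 9 for SI organoids in SI medium against control SI SCs (also 9 with the replicate block and only the first of these libraries left out, added likewise, with 1112 of all genes) and 7 for the difference of organ effects. Counts over all genes that moved by more than 1.5 times were, for control Sto SCs against control SI SCs (538), 828 by the methods' t-test unadjusted, 0 after adjustment, 262 with sex as a term and 307 without the rounded arrays. For Sto against SI organoids (266) they were 1022 and 0 by that test, 561 with quantile normalisation, 407 with median centring, and 0 with the replicate block and without the rounded arrays. For SI organoids in SI medium against control SI SCs (30) they were 220 and 0 by that test, 5 with only the groups compared, 66 with quantile normalisation, 51 with the replicate block and 4 without the rounded arrays. For Sto organoids in SI medium against control Sto SCs (1135) they were 0 by that test after adjustment and 1825 with only the groups compared, and for the difference of organ effects (159) 324 with quantile normalisation and 56 without the rounded arrays. On leaving out 1 library these all-gene counts ran, in the order of the report, from 131 to 320, 160 to 445, 0 to 17, 0 to 2609, 0 to 20, 8 to 961, 403 to 1738 and 19 to 854.

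Signs changed as follows. Cd36 was 0.00516 with sex as a term for Cdx2null against control SI SCs. Under median centring Cd36 was -0.0388 and Dgat1 -0.0689 for Cdx2null SI SCs against control Sto SCs, and Apoa4 was -0.11 (quantile normalisation -0.0895) for Sto organoids in SI medium against control Sto SCs, where that centring moved the median of all genes to -0.11 and -0.13. Dgat1 was 0.0593 for Sto against SI organoids with the replicate block and without the rounded arrays, and 0.44 without those arrays for the difference of organ effects, where Fabp2 was -2.53 without SI organoids in SI medium 1 and control SI SCs 3. With the replicate block, Sto medium minus SI medium was 1.30 for Apoa1, 0.90 for Apoa4, 0.60 for Apob, 1.24 for Mttp, 0.0502 for Fabp1, 0.27 for Fabp2 and 0.11 for Dgat1. Same-numbered samples correlated in their deviations at -0.19 to 0.40 over 21 pairs, 13 of them at or below 0.1. Both pairs were above 0.1 for control SI SCs with control Sto SCs (0.18 and 0.40) and for Cdx2null SI SCs with control Sto SCs (0.38 each), and for Cdx2null with control SI SCs they were at 0.0716 and 0.27. Where both groups have 2 arrays, the 2 pairs give the same value by construction, so they are not separate evidence. With 2 pairs these were not taken as paired. On leaving out a library, Cdx2null SI SCs minus control Sto SCs ran from -0.34 to 0.14 for Apoa4, -0.33 to 0.17 for Apoc3, -0.0102 to 0.34 for Fabp2, -0.0725 to 0.20 for Cd36 and -0.18 to 0.24 for Dgat1. Dgat1 ran from -1.20 to 0.17 for Sto minus SI organoids. The medium difference ran from -3.05 to 0.18 for Apoa4, -0.56 to 0.0417 for Apob and -1.73 to 0.65 for Mttp. Sto organoids in SI medium minus control Sto SCs ran from -0.22 to 0.20 for Apoa1 and -0.22 to 0.28 for Apoa4, and the difference of organ effects from -2.38 to 1.62 for Fabp2 and -0.95 to 0.42 for Dgat1. The cause of these changes was not tested.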
